A study of Homo sapiens with 6 samples.

Results

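This section describes AXL, its related receptors TYRO3 and MERTK, and their ligands GAS6 and protein S (gene PROS1) in HN5 cells, an established line from a human squamous carcinoma of the head and neck, with and without acquired resistance to erlotinib. Erlotinib is a small molecule inhibitor of EGFR, the receptor kinase for epidermal growth factor. The 5 genes were taken by name from the array's annotation, out of 20046 genes that have a probe there, and all 10 of their probes are described. Total RNA was hybridised to 6 Illumina arrays, 3 of resistant HN5 and 3 of parental, erlotinib-sensitive HN5. The resistant line was made from the parental line by stepping the drug up over 3 months to 12.5 µM and keeping it there for 6 months. The labels number 3 biological replicates in each group, name 1 resistant line, and do not say whether the replicates were separate cultures, whether the line was cloned or whether drug was present at harvest. P-values thus reflect only how these samples varied, which may be technical variation, and resistance, months in culture and drug exposure cannot be told apart.

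TYRO3, AXL and MERTK, together called the TAM receptors, are receptor tyrosine kinases with immunoglobulin-like and fibronectin type III domains outside the cell. Their ligands carry a domain of glutamate residues that a vitamin K-dependent enzyme carboxylates, which binds phosphatidylserine on dying cells and vesicles, and laminin G-like domains that bind the receptor. GAS6 binds all of the receptors, while protein S, which is also a plasma anticoagulant cofactor, is known as a ligand of TYRO3 and MERTK. In macrophages MERTK drives the uptake of dead cells, and in carcinomas AXL is known for its association with a mesenchymal state and with resistance to EGFR inhibitors.

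All values are the deposited normalized log2 signals. On each array a background limit was set from the bulk of dim probes, at 6.98, and 40.3% to 40.4% of the 47230 probes lay above it. Genes above it on at least 3 arrays were tested, which left 11312 genes. Across probes, which are not independent replicates, r was 0.978 to 0.980 between a resistant and a parental array and 0.996 to 0.997 within a group. Of 5 squamous carcinoma markers, KRT5, KRT14, CDH1 and EPCAM were above background on all 6 arrays, and TP63 was not analysed here. All 4 fell in resistant cells, where 27.0% of all genes tested fell (summed signal 12010 to 13014 on resistant and 19820 to 21153 on parental arrays).

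Among the 5 genes AXL and GAS6 rose, PROS1 fell by a small amount, TYRO3 did not pass the test and MERTK lay at background. The 4 tested genes were above the limit on all 6 arrays, so none entered through 1 group alone. The test passed for 3 of these 4 (limma, Benjamini-Hochberg over all genes). It also passed for 53.2% of all genes tested, where 26.2% of all genes tested rose and 27.0% fell, so the share of members called is not a result about the family. The size of the AXL change is far from the bulk: it is 1 of 25 genes (0.221%) that rose at least 4-fold, while 2.01% of genes rose at least 2-fold.

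**Figure D1:**
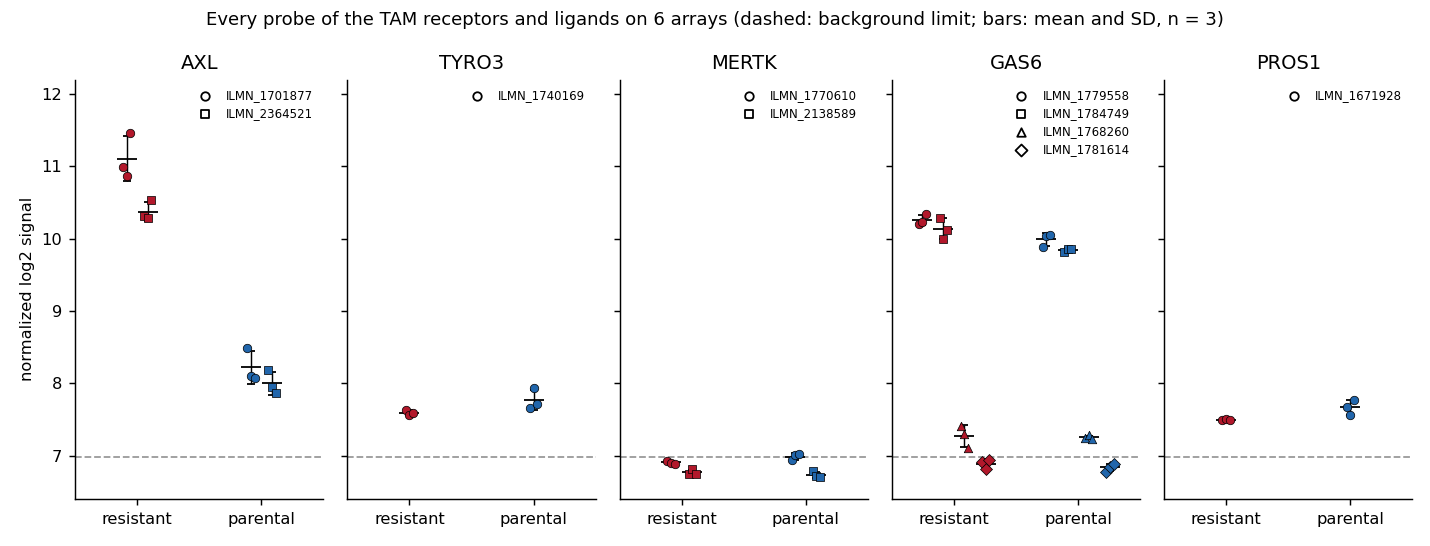
Normalized log2 signal (vertical axis) of each probe of AXL, TYRO3, MERTK, GAS6 and PROS1 on the 3 resistant (red, left) and 3 parental (blue, right) arrays; marker shapes are probes, short bars are the mean with SD (n = 3) and the dashed line is the background limit of 6.98. Both AXL probes are separated by over 2 log2 units between groups, 2 GAS6 probes by less than 0.2, and the MERTK probes lie below the limit or, on 2 parental arrays, just above it.

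AXL, the receptor named in the study's title, was read by probes ILMN_1701877 and ILMN_2364521. The first stands for the gene because it had the higher mean. It read 10.999, 10.87 and 11.46 log2 on the resistant arrays, against 8.49, 8.10 and 8.08 on the parental arrays. The second read 10.31, 10.29 and 10.53 on the resistant arrays, against 8.18, 7.95 and 7.87 on the parental arrays. On either probe every resistant array was higher than every parental array, with a gap of 2.38 and 2.11 between the nearest arrays. All resistant arrays were higher in 28.9% of all genes tested. Resistant replicate 3 was the highest of its group and parental replicate 1 the highest of its group on both probes.

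The mean of the first AXL probe was 11.11 ± 0.313 in resistant cells and 8.22 ± 0.231 in parental cells (SD, n = 3 each). The difference of 2.89 (95% interval 2.60 to 3.18, limma adjusted p = 1.10e-09) is a 7.40-fold rise. The second probe rose 5.19-fold, from a fit across all 19412 probes above the limit (adjusted p = 7.85e-10). In that fit 45.5% of probes were called, 21.9% rising and 23.7% falling, against 5 of the 7 tested probes of these genes, of which 4 rose and 1 fell. Within arrays the first probe gained 0.51 more than the second, with no overlap between groups, and the exact permutation test gave p = 0.10, the smallest that 3 against 3 arrays allow. Subtracting the background mode widened the rise to 11.2-fold on the first probe and 8.43-fold on the second. AXL also varied more between replicates than most genes: its within-group SD of 0.275 lay at percentile 99.8 of all tested genes, whose median was 0.0727. Leaving out resistant replicate 3, the highest array, gave a difference of 2.71.

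AXL is also expressed by cells other than carcinoma cells, and in RNA from a whole culture more cells of a type and more RNA per cell cannot be told apart. Of 8 fibroblast markers 4 were tested and rose, where 26.2% of all genes tested rose. The tested probes of 3 of these 4 (DCN, LUM and COL1A2) had no parental array above the limit, so that these probes passed through the resistant arrays alone. The summed signal, over all 8 markers on the linear scale, was 1915 to 1933 on resistant arrays and 991 to 1010 on parental arrays. Of the other 4, THY1 and PDGFRB were at background on all 6 arrays, and COL3A1 and FAP were above the limit on 2 resistant arrays each, with means of 7.001 and 7.01 in resistant against 6.78 and 6.87 in parental cells. Of 7 endothelial markers PECAM1 rose from background, at least 1.21-fold, having passed the filter through the resistant arrays alone, and the other 6 were at background on all arrays, with summed signals of 821 to 827 on resistant and 777 to 782 on parental arrays. The part of these markers in the AXL rise was not tested.

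RefSeq (GRCh38.p14) gives AXL 2 start windows, each running from 250 bases before to 50 bases after an annotated transcript start. They are printed because AXL had the largest change of the family, and capitals mark every match to 4 motifs searched on both strands. The motifs were GGGCGG, bound by SP1, TGANTCA, a loose form of the AP-1 site, GGAATG, bound by TEAD factors, and ACGTG. In TGANTCA any base can stand at N, whereas the usual AP-1 site has C or G there. ACGTG is a form of the core bound by hypoxia-inducible factors, and its other form, GCGTG, was not searched.
AXL upstream window, chr19:41218973-41219272, plus strand: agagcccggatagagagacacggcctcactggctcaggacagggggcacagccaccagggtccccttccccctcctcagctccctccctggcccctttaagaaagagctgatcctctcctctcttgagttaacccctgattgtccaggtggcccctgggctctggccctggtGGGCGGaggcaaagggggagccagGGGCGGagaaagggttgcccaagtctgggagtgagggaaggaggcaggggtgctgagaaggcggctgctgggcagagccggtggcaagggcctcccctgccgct
AXL downstream window, chr19:41226505-41226804, plus strand: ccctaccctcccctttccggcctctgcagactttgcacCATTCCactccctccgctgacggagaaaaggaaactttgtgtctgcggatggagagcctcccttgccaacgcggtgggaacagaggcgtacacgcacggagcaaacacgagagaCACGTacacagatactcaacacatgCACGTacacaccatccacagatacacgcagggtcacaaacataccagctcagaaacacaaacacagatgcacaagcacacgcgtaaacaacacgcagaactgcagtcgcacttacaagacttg

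The upstream AXL window had GC content of 66.0% and 2 SP1 matches, at positions -78 and -54 from the start, and no match to the other motifs. The downstream window had 1 TEAD match, at -212, and 2 matches to ACGTG, the searched form of the hypoxia core, at -98 and -73. All of them were on the opposite strand and so are printed as CATTCC and CACGT. None of these matches overlapped another. Among all 35116 RefSeq windows of this length, 45.0% held the SP1 motif, 7.71% the loose AP-1 motif, 14% the TEAD motif and 21.4% ACGTG. A match is a string of letters and shows no binding.

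TYRO3, a receptor best known from the nervous and immune systems, had 1 probe, ILMN_1740169. It read 7.64, 7.56 and 7.59 on the resistant arrays, against 7.66, 7.93 and 7.72 on the parental arrays. The groups did not overlap, but the nearest arrays were only 0.028 apart, and groups did not overlap in 59.2% of all genes tested, with resistant cells higher in 28.9% and lower in 30.3%. The mean was 7.59 ± 0.0396 in resistant cells and 7.77 ± 0.142 in parental cells (SD, n = 3 each). The difference of -0.18 (95% interval -0.33 to -0.02) missed the threshold (limma adjusted p = 0.0504), and the side of the threshold depended on the arrays and settings used. Without parental replicate 2, its highest array, the difference was -0.10 (adjusted p = 0.234), and without parental replicate 1 it was -0.23 (adjusted p = 0.0209).

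MERTK, the receptor of dead-cell uptake in macrophages, had 2 probes. ILMN_1770610 read 6.93, 6.90 and 6.89 on the resistant arrays, against 6.93, 7.01 and 7.02 on the parental arrays. It was above the limit on 0 of 3 resistant and 2 of 3 parental arrays, by at most a few hundredths. ILMN_2138589 was at background on all 6 arrays, with means of 6.77 in resistant and 6.73 in parental cells. MERTK was therefore not tested and no fold is given. Of the leukocyte markers, PTPRC, CD163, ITGAM, TYROBP and CD3E were at background on all 6 arrays as well. MARCO was above the limit on 1 array. CD14, with means of 8.08 in resistant and 7.98 in parental cells, and CD79A were above the limit on all 6 arrays. Neither passed the test (limma adjusted p = 0.223 and 0.377). CD68 rose by 1.38, CSF1R fell by 0.66, and the summed signal of all 10 leukocyte markers was 3954 to 4322 on resistant and 2478 to 2641 on parental arrays. CD68, with means of 11.45 in resistant and 10.07 in parental cells, was the brightest of the 10 and the only marker that rose. The higher sum therefore reflects CD68 and not the list as a whole.

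GAS6 encodes the ligand that binds AXL, and it was read by 4 probes of unequal brightness. ILMN_1779558, which stands for the gene, read 10.21, 10.23 and 10.34 on the resistant arrays, against 9.88, 10.03 and 10.06 on the parental arrays. ILMN_1784749 read 10.29, 10.002 and 10.12 on the resistant arrays, against 9.81, 9.86 and 9.86 on the parental arrays. On both bright probes all resistant arrays were higher, by gaps of 0.15 and 0.14, as they were in 28.9% of all genes tested. ILMN_1768260 read 7.40, 7.29 and 7.10 on the resistant arrays, against 7.24, 7.28 and 7.23 on the parental arrays, so its groups overlapped. ILMN_1781614 was at background on all 6 arrays.

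The GAS6 rise was 1.20-fold, with means of 10.26 ± 0.07002 in resistant and 9.99 ± 0.0936 in parental cells (SD, n = 3 each). The difference was 0.27 (95% interval 0.13 to 0.41, limma adjusted p = 0.00311). The other bright probe rose 1.23-fold in the fit over probes (adjusted p = 0.00487), while the dim probe differed by 0.01 (adjusted p = 0.889), a value whose sign turned with the background mode subtracted. The within-array difference between the first and the dim probe was 0.25 larger in resistant cells, with overlapping groups (exact permutation p = 0.20). The dim probe lies near background, so the probes are not ranked by their change.

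GAS6 has 1 start window in the same RefSeq table, printed because GAS6 was the other member that rose; capitals mark motif matches as above.
GAS6 window, chr13:113864027-113864326, minus strand: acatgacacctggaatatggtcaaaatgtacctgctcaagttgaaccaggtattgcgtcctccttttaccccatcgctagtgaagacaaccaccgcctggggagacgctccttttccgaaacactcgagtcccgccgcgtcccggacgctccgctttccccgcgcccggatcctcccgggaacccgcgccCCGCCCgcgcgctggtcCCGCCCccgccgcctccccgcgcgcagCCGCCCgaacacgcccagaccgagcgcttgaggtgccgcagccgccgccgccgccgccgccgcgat

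This window had GC content of 69.0% and 42 CpG dinucleotides, against a median of 58.7% and 14 over all windows. The AXL windows held 7 CpG upstream and 17 downstream, and the TYRO3 windows 49 upstream and 10 downstream. The MERTK window held 32 and the PROS1 window 18. The GAS6 window held 3 SP1 matches, all on its opposite strand (CCGCCC), and no match to the other motifs. The SP1 motif was thus present in the GAS6 window and the upstream, but not the downstream, AXL window. It was also present, with 3 matches, in the upstream TYRO3 window, with 5 in the MERTK window and with 2 in the PROS1 window. The loose AP-1 motif was found only in the upstream TYRO3 window, as TGAATCA with A at its centre, among the 7 windows of these 5 genes.

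PROS1 encodes protein S and had 1 probe, ILMN_1671928. It read 7.493, 7.504 and 7.485 on the resistant arrays, against 7.67, 7.56 and 7.77 on the parental arrays. The resistant arrays lay within 0.02 of each other and 0.057 below the nearest parental array. All resistant arrays were lower in 30.3% of all genes tested. The mean was 7.49 ± 0.00955 in resistant and 7.67 ± 0.105 in parental cells (SD, n = 3 each), a 1.13-fold fall. The difference was -0.17 (95% interval -0.31 to -0.04, limma adjusted p = 0.0324). The call was lost without any 1 of the resistant arrays, without parental replicate 1 or 3, and after cyclic loess (adjusted p = 0.0521 to 0.144). Of the other genes of the protein S anticoagulant system, PROC, the protein C gene, and THBD, its activating receptor thrombomodulin, fell to background in resistant cells, at least 1.37-fold and 1.17-fold (limma adjusted p = 4.91e-07 and 1.25e-04); both passed the filter through the parental arrays alone. PROCR, the endothelial protein C receptor, rose by 0.33 (limma adjusted p = 0.00208). TFPI, F5, C4BPA and C4BPB were not above the limit on enough arrays to be tested.

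**Figure D2:**
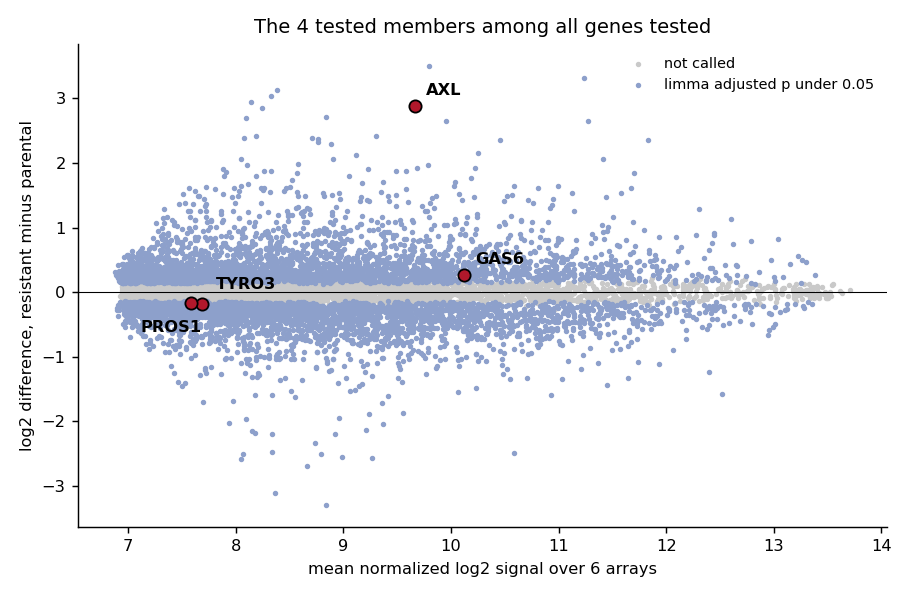
Log2 difference, resistant minus parental (vertical axis), against mean log2 signal over 6 arrays (horizontal axis) for the 11312 genes tested; blue points passed limma at an adjusted p under 0.05, grey points did not, and red points are the 4 tested members. AXL stands at 2.89, far outside the bulk, while GAS6 (0.27), PROS1 (-0.17) and TYRO3 (-0.18) lie in the dense band near 0.

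The changes within the family were set against each other on each array, as the log2 value of AXL minus that of another member. The change of AXL exceeded that of TYRO3 by 3.06, of PROS1 by 3.06 and of GAS6 by 2.62. MERTK is left out here because it lay at background. In these 3 pairs every resistant array had a larger difference than every parental array. AXL alone had a gap of 2.38 between its nearest arrays, and the other 3 members changed far less. The separation of the pairs therefore restates that of AXL and is not a further result. The exact two-sided permutation test over arrays gave p = 0.10 for each pair, the smallest p this design allows, so none can pass 0.05. Benjamini-Hochberg adjustment of these permutation p-values, made over 4 pairs with that of MERTK included, also gave 0.10. These are unequal changes within arrays, not levels of 1 gene against another.

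Around the receptors and ligands, 12 lists of genes were described by role, chosen with earlier results of these data known. They hold 115 genes, of which 9 were not analysed here, 20 were at background, meaning above the limit on fewer than 3 arrays, and 86 were tested. Of these 86, 29 rose and 26 fell, 64.0% called against 53.2% of all genes, with a median log2 difference of 0.01 beside -0.01 over all genes. Among lists with at least 3 tested genes, the medians ran between -0.35 for the protein S system (-0.23 with PROC and THBD at their bounds) and 0.33 for phosphatidylserine exposure. The plot of the lists shows each gene by role.

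**Figure D3:**
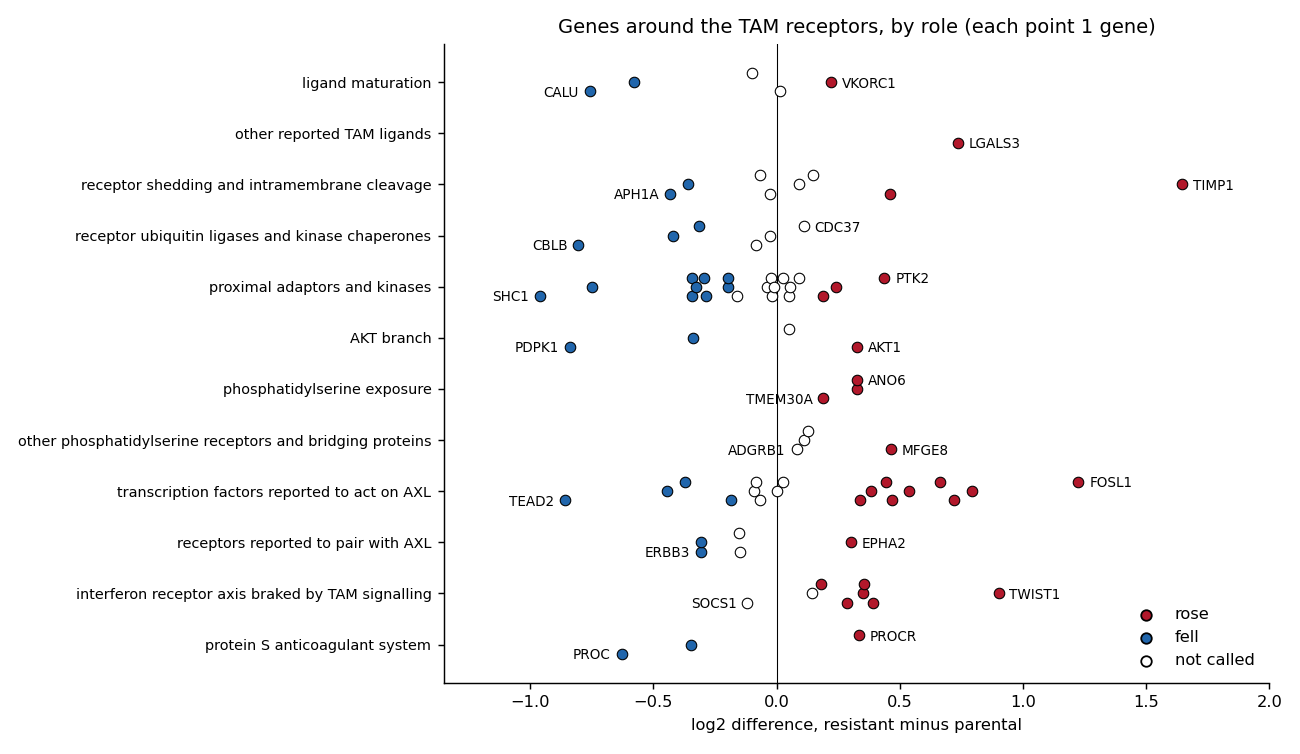
Log2 difference, resistant minus parental (horizontal axis), of each tested gene in 12 lists of genes around the TAM receptors (rows); red points rose, blue points fell and open points were not called, and the outermost genes are named. TIMP1 (1.65) and FOSL1 (1.22) are the only listed genes beyond 1 in either direction.

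The ligands are made active by gamma-carboxylation, and of 5 tested genes of their maturation 1 rose and 2 fell, with a median of -0.10, near the 53.2% called among all genes tested. GGCX, the carboxylase, differed by 0.01 (limma adjusted p = 0.878), with means of 7.98 in resistant and 7.96 in parental cells. VKORC1, which recycles vitamin K, rose by 0.22 (adjusted p = 0.0109), a call lost without resistant replicate 3 (0.0575) and with the background mode subtracted (0.0632). Its relative VKORC1L1 fell by 0.58 (adjusted p = 1.02e-06), and CALU, an endoplasmic reticulum protein reported in rat to inhibit the carboxylase, fell by 0.76 (adjusted p = 1.64e-07). FURIN, a protease that removes propeptides, differed by -0.10 (adjusted p = 0.188). Of the reported ligands outside the family, LGALS3, which encodes galectin-3, a MERTK ligand, rose by 0.74 (adjusted p = 6.95e-07), and TUB and TULP1 were at background.

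AXL is shed from the cell surface by ADAM10 and ADAM17, after which gamma-secretase can cut the remaining stub. Of 8 tested genes of shedding and cleavage 2 rose and 2 fell, with a median of 0.03, near the 53.2% called among all genes tested. Neither sheddase passed the test: ADAM10 differed by -0.03 and ADAM17 by -0.07 (limma adjusted p = 0.751 and 0.341). TIMP1, an inhibitor of metalloproteinases, read 11.42, 11.35 and 11.47 on the resistant arrays, against 9.79, 9.78 and 9.74 on the parental arrays, a 3.13-fold rise (adjusted p = 6.23e-11). The TIMP1 groups were far apart relative to their spread. Gamma-secretase subunits went both ways, with PSEN2 rising by 0.46 and NCSTN and APH1A falling by 0.36 and 0.43. PSENEN differed by 0.09 (adjusted p = 0.274).

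The ubiquitin ligase genes CBLB and CBLC, whose products tag active receptor kinases for breakdown, were lower in resistant cells. Of 6 tested ligase and chaperone genes 3 fell and 0 rose, with a median of -0.20 (-0.18 with CBLC at its bound). Among all genes tested 27.0% fell and 26.2% rose, 53.2% called, and 6 genes are too few to read as a result about the list. CBLB fell by 0.80 (limma adjusted p = 7.60e-08). CBLC reached background on all resistant arrays, at least 1.22-fold lower; it passed the filter through the parental arrays alone. CBL itself differed by -0.03 (adjusted p = 0.720). Of the chaperone genes, HSP90AB1 fell by 0.42, while HSP90AA1 and the kinase co-chaperone CDC37 differed by -0.08 and 0.11 and did not pass.

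Of 21 tested adaptors and kinases that act next to TAM receptors, 9 fell and 3 rose, with a median of -0.04, where 27.0% of all genes fell and 26.2% rose. SHC1, an adaptor to the Ras pathway, fell by 0.96 (limma adjusted p = 3.37e-08), and VAV3, an exchange factor for Rac, by 0.75 (adjusted p = 7.17e-07). PIK3R1 and PIK3CB, subunits of phosphoinositide 3-kinase, both fell by 0.34. PTK2, which encodes focal adhesion kinase, rose by 0.44 on its brightest probe and by 0.22 with the mean of its probes. ELMO2 rose by 0.24 and GAB2 by 0.19. The GAB2 call was lost without resistant replicate 3 or parental replicate 3 (limma adjusted p = 0.0523 and 0.0580). The adaptor GRB2 differed by 0.09 (adjusted p = 0.363). In the AKT branch, where 4 genes were tested with a median of -0.14, PDPK1, the kinase that activates AKT, fell by 0.84 (adjusted p = 3.01e-06), GSK3B fell by 0.34 and AKT1 rose by 0.33. MTOR differed by 0.05 (adjusted p = 0.550).

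TAM ligands act where phosphatidylserine is exposed, and the 3 tested genes of that step all rose, with a median of 0.33, where 26.2% of all genes tested rose; 3 genes are too few to read as a result about the step. The scramblase genes XKR8 and ANO6 each rose by 0.33 (limma adjusted p = 2.62e-04 and 7.27e-04). TMEM30A, the partner subunit of flippases, which act in the opposite direction, rose by 0.19 (adjusted p = 0.0176), a call lost without resistant replicate 3 or parental replicate 2 (0.0867 and 0.0550). Among other phosphatidylserine receptors and bridging proteins, MFGE8, a bridging protein, rose by 0.46 (adjusted p = 8.39e-05) and was the only call among 4 tested. Its integrin partners ITGAV and ITGB5 differed by 0.11 and 0.13 and did not pass, although ITGB5 passed without parental replicate 1 and with the mean of its probes (limma adjusted p = 0.0490 and 0.0418). Of this list 8 of 13 genes, among them TIMD4, STAB1 and CD36, were at background.

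Of 18 transcription factors reported to act on AXL, all tested, 9 rose and 4 fell, with a median of 0.18, where 26.2% of all genes tested rose and 27.0% fell. AP-1 subunits accounted for 5 of the rises: FOSL1 rose by 1.22 (limma adjusted p = 3.49e-09), JUND by 0.72, JUN by 0.66 and FOSB by 0.34, and FOS rose from background, at least 1.36-fold, passing the filter through the resistant arrays alone. FOSL2 and JUNB differed by -0.07 and -0.08 and did not pass. YAP1 and WWTR1, transcriptional coactivators that work with TEAD factors, rose by 0.38 and 0.47. Of the TEAD genes themselves TEAD2 fell by 0.86 (adjusted p = 3.83e-08) and TEAD1 by 0.19, a TEAD1 call lost without resistant replicate 3 or parental replicate 1, and TEAD3 and TEAD4 did not pass. HIF1A rose by 0.79 and EPAS1, its relative, fell by 0.44. SP1 fell by 0.37 (adjusted p = 6.24e-04) and SP3 differed by 0.00274 (adjusted p = 0.979). Fibroblast markers moved between the same groups, as given with AXL, and their part in these values was not tested.

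Among receptors reported to pair with AXL, 5 were tested, with a median of -0.15. ERBB2 and ERBB3 fell by 0.31 each and EPHA2, an ephrin receptor, rose by 0.30, with the groups of ERBB3 and EPHA2 overlapping. The EPHA2 call was lost without resistant replicate 2 or parental replicate 3 and with the background mode subtracted (limma adjusted p = 0.0620 to 0.0765), and the ERBB3 call without resistant replicate 2, parental replicate 1 or 2, and with the background mode subtracted (0.0553 to 0.0746). EGFR differed by -0.15 on its brightest probe and did not pass (adjusted p = 0.0572); without parental replicate 1 the value was -0.20 (adjusted p = 0.0250), while the mean of its probes turned the sign, to 0.0548.

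TAM receptors are known from mouse dendritic cells to brake inflammation by working with the type I interferon receptor and inducing SOCS1 and SOCS3. Of 8 tested genes of that axis 6 rose and 0 fell, with a median of 0.32, where 26.2% of all genes tested rose and 27.0% fell. The receptor subunits IFNAR1 and IFNAR2 rose by 0.29 and 0.18, their kinases TYK2 and JAK1 by 0.39 and 0.35, and IRF9 by 0.35. TWIST1, a repressor reported downstream of AXL and better known in mesenchymal transition, rose by 0.90 (limma adjusted p = 4.33e-08). The brakes themselves did not pass in the main fit: SOCS1 differed by -0.12 (adjusted p = 0.112) and SOCS3 missed the threshold (adjusted p = 0.0771). The tested SOCS3 probe passed the filter through the resistant arrays alone, and SOCS3 was called with the moderation trend (limma adjusted p = 0.0329).

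The profile of AXL over the 6 arrays was then compared with that of each other tested gene, as the Euclidean distance between log2 values centred on each gene's mean. The 8 nearest were ALPK2, COL6A3, NNMT, CXCL1, DCN, SOD2, PTGS2 and RSAD2, at distances of 0.558 to 0.714 and Pearson's r of 0.983 to 0.996 over 6 arrays. These points share the split into 2 groups, so r is high for any gene with a large rise and is a description only. In parental cells AXL was above background on every array, whereas ALPK2, COL6A3, NNMT and DCN were above it on none. ALPK2, COL6A3, NNMT and DCN thus passed the filter through the resistant arrays alone, and their distances and r rest on parental values at background. CXCL1, a neutrophil chemokine gene, read 10.35, 10.34 and 10.86 on the resistant arrays, against 8.12, 8.12 and 8.02 on the parental arrays. Like AXL it stood well above its other arrays on resistant replicate 3, and it had the highest r of the 8.

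**Figure D4:**
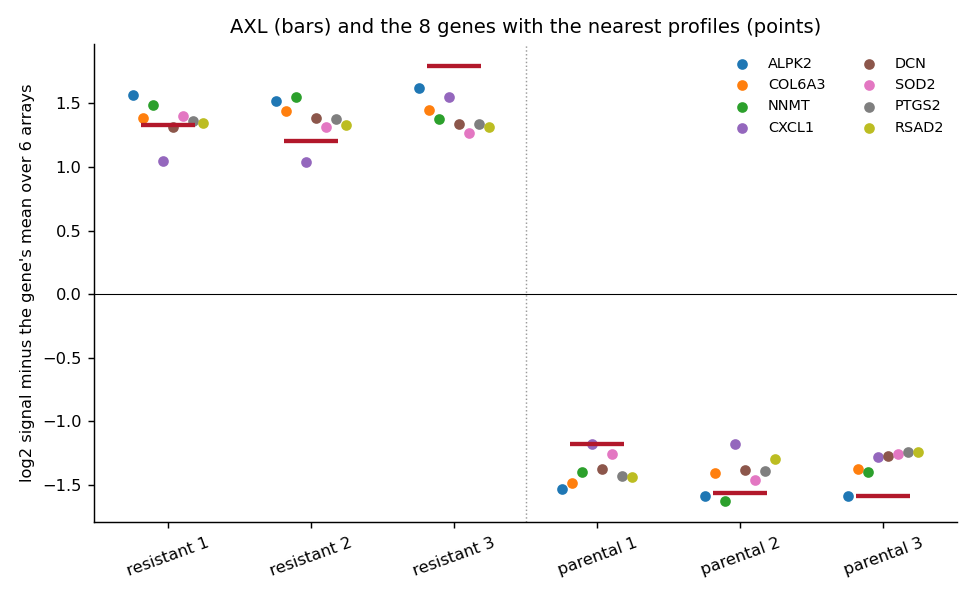
Log2 signal minus each gene's mean over the 6 arrays (vertical axis) on each resistant and parental array (horizontal axis); bars are AXL and points are the 8 genes with the nearest profiles. AXL and CXCL1 stand clearly higher on resistant replicate 3 than on the other resistant arrays, where the other 7 genes are nearly level.

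The genes beside each member on its chromosome were compared last, as the 5 nearest tested genes on each side in the RefSeq order of GRCh38.p14. AXL lies on chromosome 19, and its 10 neighbours went both ways, with 3 rising, 4 falling and values between -0.45 and 0.43. None of them rose as far as AXL. GAS6 lies on chromosome 13 and has 8 such neighbours, of which 2 rose and 1 fell, between -0.25 and 0.27. Beside PROS1 on chromosome 3 all 10 neighbours were lower in resistant cells, of which 7 fell and 0 rose, where 27.0% of all genes tested fell and 26.2% rose. For 2 of these 7 the direction was fixed by the filter, because they were at background on all resistant arrays and passed through the parental arrays alone. Beside MERTK on chromosome 2, 7 of 10 fell and 1 rose, and beside TYRO3 on chromosome 15, 4 fell and 2 rose.

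**Figure D5:**
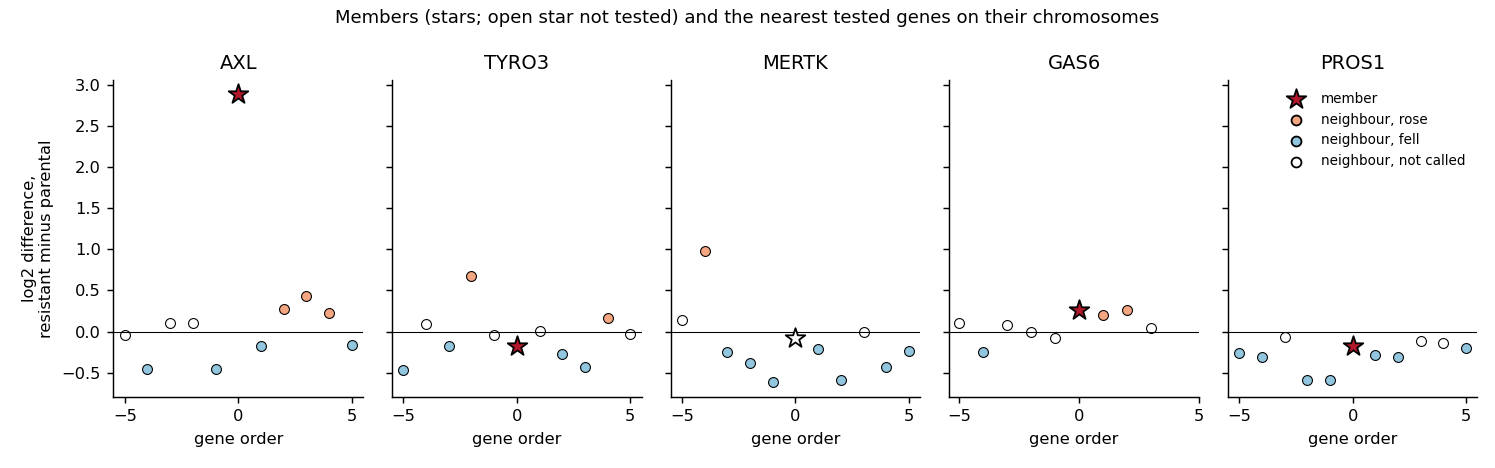
Log2 difference, resistant minus parental (vertical axis), of each member (star at 0, open where not tested) and of the nearest tested genes by their order along the chromosome (horizontal axis, up to 5 on each side); orange neighbours rose, light blue neighbours fell and open ones were not called. AXL at 2.89 stands above neighbours that lie between -0.45 and 0.43. The neighbours of PROS1 all lie below 0, 2 of them at background in resistant cells.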

How the data were processed

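The authors' deposited values are normalized log2 signals, 1 per probe and array; as for the software and normalization behind them, neither is given in the sources used here. Base 2 and the normalization were read from the values: the arrays ran from 6.51 to 13.76, and their sorted values differed by at most 0.00434, as after quantile normalization, so changes are relative to the other probes. The deposited raw signals were left out, because the 12 per-sample columns of that table carry names that match no label. Groups and replicate numbers came from the sample titles.

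Probes were named through the platform annotation (30112 with 1 symbol, 8 with several, 17110 unnamed; 30073 found by Entrez ID in RefSeq, 0 symbols changed). The background limit of an array was the mode of its values plus 3 SD of the values below it. Genes above it on at least 3 of 6 arrays were tested, each by its probe with the highest mean, with limma 3.58.1 in R 4.3.3 (lmFit, eBayes; 4 residual and 9.00 prior degrees of freedom) and Benjamini-Hochberg adjustment at 0.05. Alternatives changed the filter on dim probes (none, or all 6 arrays), the choice of probe (mean), the scaling (cyclic loess), the background (mode subtracted), limma's options (moderation trend, array weights, replicate block) and the arrays (each left out in turn). Probes were fitted likewise over all 19412 above the limit. A fold with 1 group at background is a lower bound from that group's mean limit. The number of arrays, 3 a group, limits the precision.

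Members and lists were chosen with earlier results of these data known. Named genes are the members, in each list up to 4 tested genes with the smallest adjusted p and others whose role a sentence needs, the 8 profiles nearest to AXL, and neighbours changed at least 2-fold, of which there were none. On simulated data of 11312 genes for this comparison, limma recovered 100 of 100 genes changed by 1 log2 unit and 31 of 100 changed by 0.25, and called 8 unchanged genes. Only these genes were changed in the simulation, whereas 53.2% of genes tested were called in the data. The Benjamini-Hochberg threshold was therefore stricter in the simulation, and its recovery is not that of the data.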

Additional observations from a re-analysis of the deposited data

How the results depend on the processing

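AXL and GAS6 kept direction and call in all 14 alternatives each, with log2 differences of 2.63 to 3.49 and 0.19 to 0.30. PROS1 stayed lower in all 14, but lost its call with cyclic loess (-0.15) and in 5 of the 6 fits that left out 1 array (-0.22 to -0.12 over the 6). TYRO3 also stayed lower; it passed with the mean of probes, the moderation trend and the replicate block (each -0.18, adjusted p = 0.0455, 0.0422 and 0.0488), with array weights (-0.18, adjusted p = 0.0401), and without parental replicate 1 or 3, where leaving out 1 array gave -0.23 to -0.10. The cause was not tested. The measured MERTK difference, which lies at background and carries no fold, moved to -0.0235 with the mean of its probes, because its dimmer probe differed the other way. The dim GAS6 probe ILMN_1768260 turned to -0.00057 with the background mode subtracted and to between -0.0543 and 0.0974 without 1 array; it was called in none of these. Of 63 called list and nearest genes 55 kept call and direction in every alternative run, and VKORC1, SRC, NCK2, GAB2, TMEM30A, TEAD1, ERBB3 and EPHA2 lost the call in at least 1 (adjusted p up to 0.174, for NCK2). Of the 20 uncalled list genes named, these turned sign near 0. With the mean of probes ADAM17 was 0.00614, SP3 -0.00655 and EGFR 0.0548. Without 1 array GGCX lay between -0.0261 and 0.0461, ADAM10 between -0.101 and 0.0109, CBL between -0.0550 and 0.000248, MTOR between -0.00357 and 0.0952, FOSL2 between -0.112 and 0.00804, SP3 between -0.0635 and 0.0708, and TEAD3 between -0.0739 and 0.101. Pathway genes called ranged from 50 to 58 about 55.

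Same-numbered arrays of the 2 groups deviated together by r = 0.00137 to 0.145, and differently numbered arrays by -0.197 to 0.128. These ranges overlap and rest on few arrays, so they cannot decide whether the numbers pair the samples. The replicate block gave 6125 called genes against 6019. It gave 57 pathway genes, with EGFR among those it added (-0.15, adjusted p = 0.0363). Signal over background limits what can be said of MERTK, the dim GAS6 probes, and small changes of TYRO3 and PROS1.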
